A study of Mus musculus with 6 samples.

Results

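The DNA replication machinery was followed here as a list of 45 named genes, 45 of the 35527 genes summed from the deposited transcript estimates and 45 of the 15805 that passed the filter on low counts. The genes were listed by name, with no measured value in the rule, but they were chosen with earlier results of these data known. They were split by role into origin licensing (5 genes), helicase (12), sliding clamp and its loader (5), polymerases, primase, single-strand binding and strand joining (13), nucleotide supply (5), fork protection (3) and chromatin assembly (2). RNA-seq libraries were made with a stranded mRNA kit from the whole pancreas of 6 C57BL/6 mice aged 1 day. Of these, 3 mice were wild type (WT 1 to 3) and 3 were null for the microRNA gene miR-216a (labelled KO and miR216a-/-, here KO 1 to 3). The labels describe no treatment, give no construct or Cre driver for the null allele and tie each library to its own mouse. The comparison of KO with WT asks how pancreatic transcripts differ at birth when the microRNA is missing.

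A cell copies its genome once per division. In the G1 phase, the origin recognition complex, with CDC6 and CDT1, loads rings of the 6 MCM2-7 subunits onto DNA, and geminin blocks further loading once copying has started. In S phase, CDC45 and the GINS complex join MCM2-7 to form the active helicase, the polymerases copy both strands while the PCNA clamp holds them on the DNA, and deoxynucleotides are made to match. The E2F transcription factors drive many of these genes as cells pass from G1 into S phase. The pancreas of a newborn mouse still grows by division of its acinar, endocrine and supporting cells.

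All 45 genes had a lower mean level in KO than in WT. Levels are given as CPM, read counts set in proportion to the size of the library after scaling by the trimmed mean of M-values (TMM), a scale on which levels of one gene can be set side by side across libraries. The median log2 fold change of the 45 genes was -0.84, against 0.01 over all 15805 genes tested, and the values ran from -1.45 for Gins1 to -0.21 for Rpa3. For 44 of the 45 genes all KO libraries were under all WT libraries, an order that 10.3% of all tested genes also had, and Rpa3 was the exception. In whole-tissue RNA, fewer cells of a dividing type and less of each transcript per cell cannot be told apart.

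No single gene of the list passed the test across all genes. In edgeR's quasi-likelihood test with Benjamini-Hochberg adjustment at 0.05, 0 of the 45 genes were called lower and 0 higher, where 0% of all 15805 genes were called in either direction, and the smallest adjusted p on the list was 0.205. At an unadjusted p under 0.05 in the same test, 44 of the 45 genes were lower, against 7% of all genes. DESeq2's Wald test on the same counts called 32 of the 45 lower, against 1.85% of all genes, and limma-voom called 0. With KO 1 left out, edgeR called 23 of the 45 lower, against 1.71% of all genes, and all 23 were among the 32 from DESeq2. These p-values measure the spread between these 6 mice, and an exact permutation test of 3 against 3 libraries cannot give a p below 0.1.

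The KO libraries were not alike. Set against each gene's WT mean, the median log2 level of the 45 genes stood at -0.06, -0.01 and 0.06 for WT 1 to 3, while KO 1 to 3 gave -0.54, -0.70 and -1.37. KO 3 was the lowest of the 6 libraries for 43 genes, and KO 2 was for Orc6 and Gins4. KO 1 was the highest of the KO libraries for 36 genes. KO 2 was the highest for the other 9, which were Orc1, Cdc6, Cdt1, Mcm2, Mcm6, Pola2, Pold2, Pole2 and Fen1. Without KO 3 the median log2 fold change of the 45 genes was -0.64, and without KO 1 it was -0.99. Among single genes, the log2 fold change without KO 3 was -0.75 for Cdc6, -0.55 for Mcm6, -0.46 for Cdc45 and -0.38 for Rfc2. It was -0.42 for Prim1, -0.54 for Pola1, -0.43 for Pold1 and -0.14 for Rpa3, and Rpa3 went to -0.10 without WT 1. These genes are examples and were not ranked by how far they depended on KO 3. The coefficient of variation across 3 libraries had a median of 6.82% in WT and 27.9% in KO and was larger in KO for 44 of the 45 genes. Over all tested genes the medians were 10.4% and 13.9%, and the KO value was the larger for 64.1%. Reads of the 45 genes made up 0.167%, 0.186% and 0.168% of WT 1 to 3 and 0.122%, 0.0934% and 0.0674% of KO 1 to 3.

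**Figure D1:**
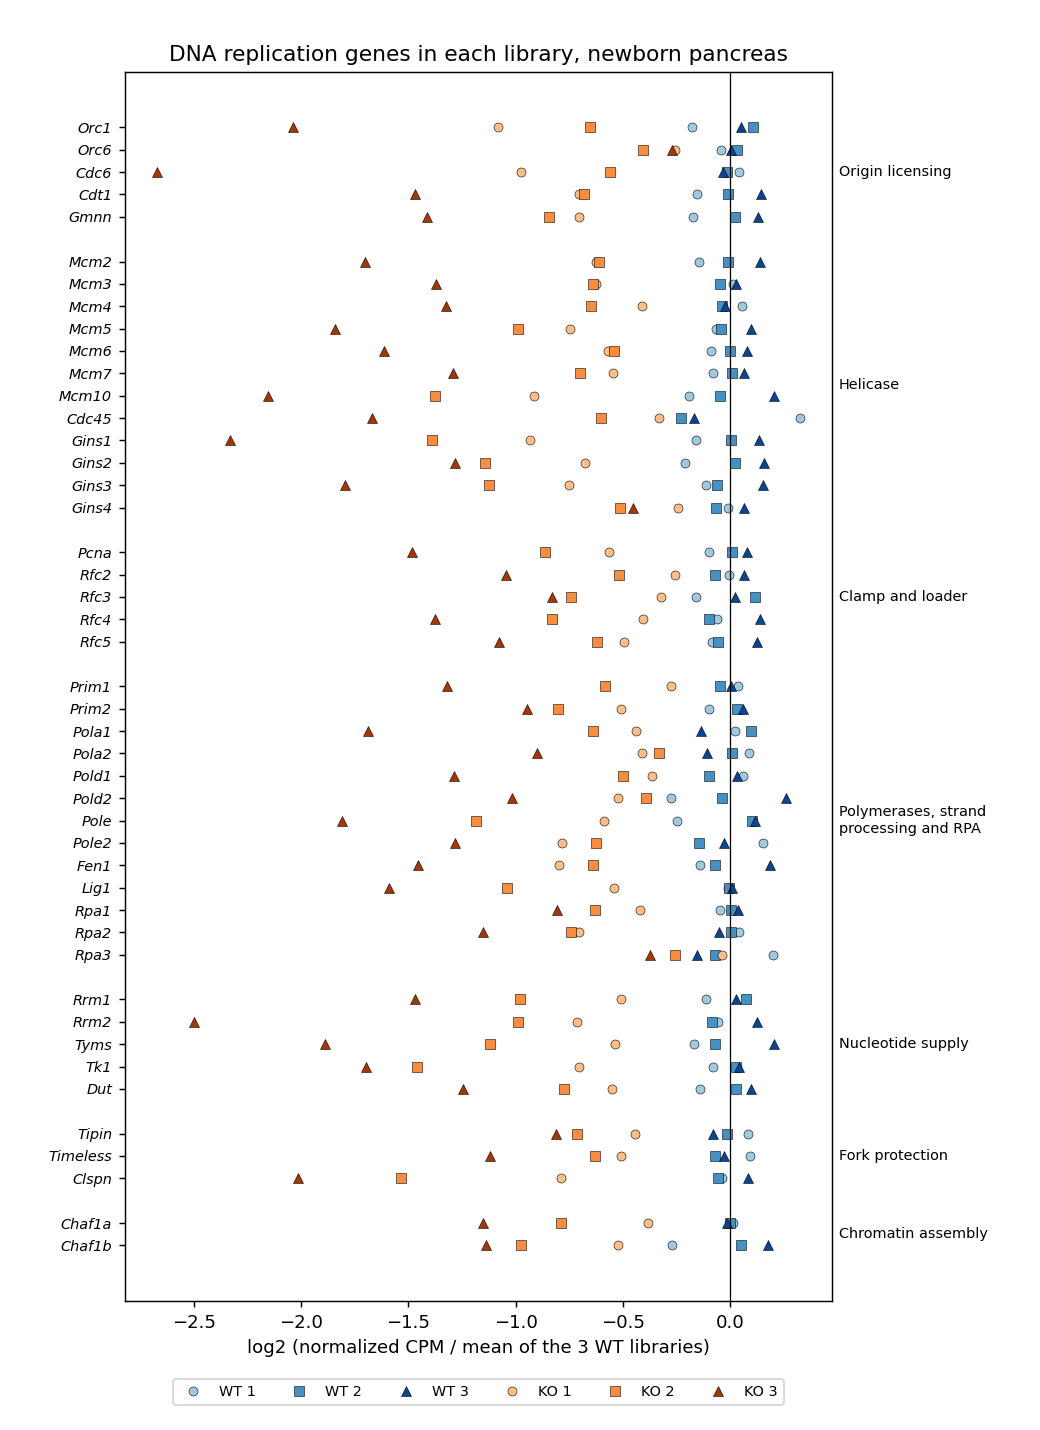
Level of each of the 45 replication genes in each of the 6 libraries, as the log2 ratio of its CPM to the WT mean, with genes grouped by role. The WT columns stay near 0, and the KO 3 column is the lowest for 43 of the 45 genes.

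**Figure D2:**
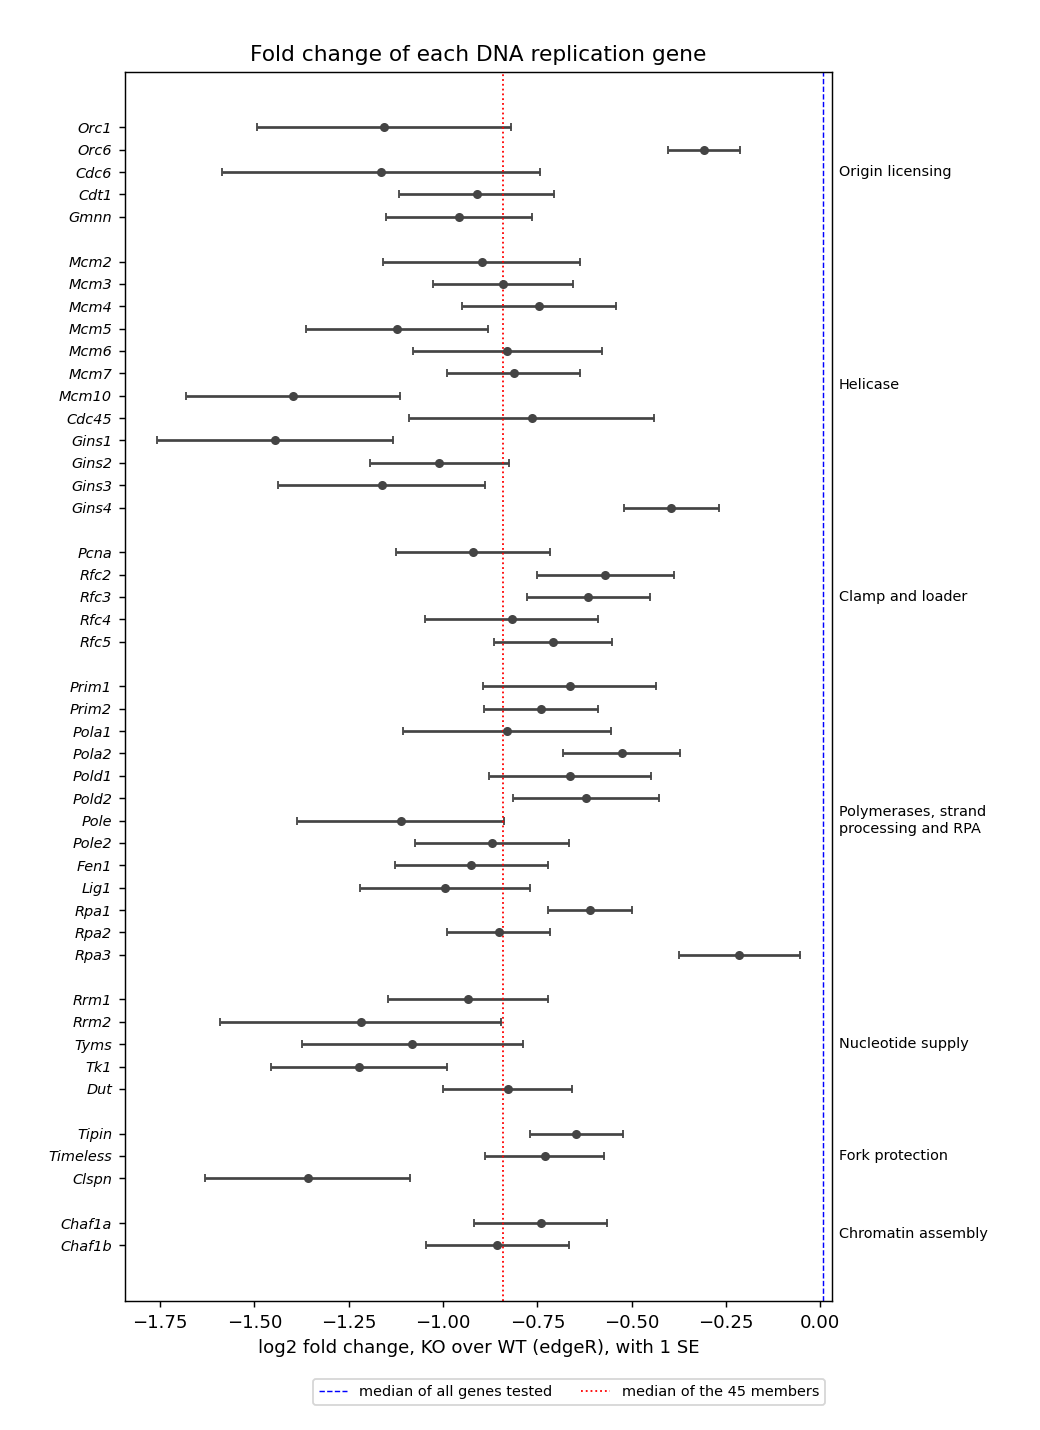
Log2 fold change of KO against WT with its standard error for each of the 45 genes, by role, from edgeR's quasi-likelihood fit to 3 libraries per genotype. All points lie below 0, from -1.45 for Gins1 to -0.21 for Rpa3.

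The libraries held 20565387 to 23028718 estimated reads, and the fewest reads of any of the 45 genes in a library were 25, for Orc1. Acinar markers took 19.7 to 24.5% of reads in WT and 23.6 to 26.0% in KO, so the tissue label held in all 6 libraries. No transcript of the 5 annotated genes at the miR-216a locus was among the quantified transcripts, and the genotype labels could therefore not be checked from these data. Markers of other cells varied: the share of erythroid markers, 7 of 8 found, was 0.266 to 0.600% in WT, highest in WT 1, and 0.176 to 0.440% in KO, highest in KO 2 (exact permutation p = 0.5). Beta cell markers took 0.518 to 0.708% of WT and 0.386 to 0.463% of KO reads (exact permutation p = 0.1, the smallest possible), and mesenchyme markers 0.875 to 1.242% and 0.547 to 0.978%. Of the beta cell markers, Iapp and Slc2a2 overlapped between the groups. Ins1, Ins2 and Mafa were lower in every KO library than in every WT library, an order that 10.3% of all tested genes had. Slc2a2 was at 35.2 to 48.9 CPM in WT and at 60.4, 58.2 and 31.0 CPM in KO 1 to 3. Alb, the liver's main secreted protein, was at 219 CPM in WT 1, against 6.41 to 15.1 CPM elsewhere. Ddx3y, a Y-linked gene, was at 0.141 CPM in KO 1 and at 61.8 to 102 CPM in the other 5 libraries, so KO 1, whose omission raised the number of calls, differed from them in this too, and the part of sex in the result was not tested. With the erythroid share as a covariate the median log2 fold change of the replication genes was -0.80, and without both WT 1 and KO 2 it was -0.92. The part of the beta cell and mesenchyme shares in the result was not tested.

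In each of the 5 licensing genes the KO libraries were under all WT libraries, an order that 10.3% of all tested genes had. The size of the difference varied between genes. Geminin, encoded by Gmnn, binds CDT1 and stops origins from being loaded again. Gmnn stood at 15.9, 18.2 and 19.6 CPM in WT 1 to 3 and at 10.98, 9.96 and 6.71 CPM in KO 1 to 3. Its log2 fold change was -0.96 ± 0.19 (SE). Cdt1, the loader that geminin restrains, measured 26.2, 28.9 and 32.2 CPM in WT and 17.9, 18.1 and 10.5 CPM in KO, a log2 fold change of -0.91 ± 0.21. KO 1 and KO 2 were close to each other for Cdt1, and KO 3 was far below both. Orc1 encodes the subunit of the origin recognition complex that is made and destroyed with the cell cycle. Its levels were 3.89, 4.73 and 4.56 CPM in WT and 2.07, 2.80 and 1.07 CPM in KO, with a log2 fold change of -1.16 ± 0.34. Cdc6, the ATPase that brings MCM2-7 to the origin with CDT1, had the largest KO coefficient of variation of the list, 59.4%: WT libraries gave 17.4, 16.8 and 16.6 CPM, and KO libraries gave 8.62, 11.5 and 2.65 CPM, a mean of 7.59 ± 4.51 CPM (SD, n = 3). Its log2 fold change was -1.16 ± 0.42, and it was -0.75 without KO 3 and -1.59 without KO 2. Orc6 had the smallest difference of the 5, 24.97, 26.3 and 25.8 CPM against 21.5, 19.4 and 21.3 CPM, so that the KO mean was 80.7% of the WT mean. Adjusted p for the 5 genes ran from 0.205 for Gmnn to 0.315 for Cdc6 in edgeR's quasi-likelihood test.

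All 6 ring subunits of the helicase were lower in every KO library than in every WT library. Over all tested genes, 10.3% had that order. The MCM2-7 subunits form one ring in equal numbers and open the double helix ahead of the polymerases. Mcm2 measured 63.3, 69.5 and 76.99 CPM in WT 1 to 3 and 45.4, 45.8 and 21.5 CPM in KO 1 to 3. Mcm3 was at 60.2, 57.6 and 60.7 CPM in WT and 38.5, 38.2 and 23.01 CPM in KO. For Mcm4 the values were 58.7, 54.9 and 55.5 CPM in WT and 42.4, 35.98 and 22.5 CPM in KO. In all 3 the KO libraries were under the WT libraries with no overlap. Mcm5 levels were 71.6, 72.7 and 80.1 CPM in WT and 44.6, 37.8 and 20.9 CPM in KO. Mcm6 read 115, 123 and 130 CPM in WT and 82.7, 84.4 and 40.02 CPM in KO. Mcm7 read 79.6, 84.6 and 87.9 CPM in WT and 57.7, 51.7 and 34.3 CPM in KO. KO 3 was below the other 5 libraries for each of the 6 subunits. The log2 fold changes of the 6 ran from -1.12 ± 0.24 (SE) for Mcm5 to -0.75 ± 0.20 for Mcm4, with a median of -0.83, and neighbours in that order differed by less than the SE of either. The library medians of the ring genes against the WT mean were -0.60, -0.64 and -1.49 in KO 1 to 3.

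The factors that turn the loaded ring into a moving helicase differed more among themselves. The GINS genes encode the 4-subunit complex that bridges the ring and the leading-strand polymerase. Gins2 measured 15.9, 18.7 and 20.6 CPM in WT and 11.5, 8.33 and 7.57 CPM in KO, with a log2 fold change of -1.01 ± 0.19. Gins1, with 9.67, 10.8 and 11.9 CPM in WT and 5.65, 4.12 and 2.14 CPM in KO, had a log2 fold change of -1.45 ± 0.31, the lowest of the 45 genes in this fit, though Mcm10 was lower with the length offset and in the authors' table, and Cdc6 was lower without KO 2, alone or together with WT 1. Gins4 differed least of the 4, at 14.8, 14.2 and 15.6 CPM in WT and 12.6, 10.4 and 10.9 CPM in KO, a log2 fold change of -0.40 ± 0.13. The 4 genes of one complex thus spanned -1.45 to -0.40, and whether Gins1 and Gins4 differ in their response was not tested. Mcm10, which helps the helicase to start, read 15.02, 16.6 and 19.8 CPM in WT and 9.09, 6.61 and 3.85 CPM in KO, with a log2 fold change of -1.40 ± 0.28. Cdc45 had the largest WT coefficient of variation of the list, 22.1%, with 13.8, 9.42 and 9.83 CPM, against 8.76, 7.27 and 3.46 CPM in KO. WT 1 was its highest library, and KO 1 lay just under WT 2 and WT 3. Adjusted p among the 12 helicase genes ran from 0.205 for Gins2 to 0.384 for Cdc45 in edgeR's quasi-likelihood test.

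Short stretches before the transcription start were read for the letters bound by the factors of this gene class, from the RefSeq promoter table on GRCm38.p6, which held 41 windows for 36 of the 45 genes. Each window ran from 250 bases before the start to 50 from it on, and the letters searched on both strands were TTTCCCGC, TTTCGCGC, TTTGCCGC and TTTGGCGC for E2F, CCAAT for NF-Y, and TTTGAA for the cell cycle homology region bound by the DREAM complex; matches could overlap each other. The 4 genes below were chosen because their windows carry E2F letters and no annotated exon lies there, and they span licensing, helicase and polymerase. Capitals mark the E2F and CCAAT matches, and each sequence is given 5′ to 3′ on the gene's own strand: Mcm6 at chr1:128359706-128359825 (minus strand, -120 to -1 from the start), Mcm5 at chr8:75109346-75109501 (plus strand, -163 to -8), Cdc6 at chr11:98908003-98908030 (plus strand, -148 to -121) and Pola1 at chrX:93632178-93632303 (minus strand, -148 to -23).
Mcm6: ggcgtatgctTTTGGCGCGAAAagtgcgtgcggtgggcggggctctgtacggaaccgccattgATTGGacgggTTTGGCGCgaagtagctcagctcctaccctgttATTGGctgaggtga
Mcm5: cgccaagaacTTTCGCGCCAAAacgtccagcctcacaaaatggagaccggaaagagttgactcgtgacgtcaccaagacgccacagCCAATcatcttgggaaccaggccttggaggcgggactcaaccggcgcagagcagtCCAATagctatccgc
Cdc6: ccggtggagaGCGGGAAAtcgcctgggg
Pola1: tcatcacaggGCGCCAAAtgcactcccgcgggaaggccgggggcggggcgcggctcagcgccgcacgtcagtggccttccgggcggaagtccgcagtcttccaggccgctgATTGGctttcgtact

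E2F letters were in 14 of the 41 windows of the replication genes (34.1%), in 3.54% of the 15057 windows of all tested genes and in 2.26% of all 32851 windows in the table. Among windows of tested genes with a GC content in the middle range of the replication genes, 4.15% held them. CCAAT was in 56.1% of the replication windows, 37.4% of tested windows and 37.4% of all windows, and both letters together were in 22.0% against 1.52% of tested windows. TTTGAA was in 12.2% against 12.7%, and in 17.9% of all windows. The 14 genes with E2F letters had a median log2 fold change of -0.89, and the 22 without had -0.82. Windows of 1 gene overlap in part, and a match of letters is a description of the sequence.

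PCNA, the sliding clamp, had the highest level per transcript length of the 45 genes. Pcna measured 109, 118 and 124 CPM in WT 1 to 3 and 79.1, 64.4 and 41.9 CPM in KO 1 to 3, and its log2 fold change was -0.92 ± 0.20 (SE). The WT libraries sat close together, and the KO libraries stepped apart in the order KO 1, KO 2, KO 3. The clamp is opened and closed around DNA by the 5-subunit replication factor C, of which 4 small subunits were listed. Rfc5 measured 32.5, 33.1 and 37.5 CPM in WT and 24.4, 22.4 and 16.3 CPM in KO, a log2 fold change of -0.71 ± 0.16. Rfc3 was at 16.8, 20.4 and 19.1 CPM in WT and 15.03, 11.2 and 10.6 CPM in KO, a log2 fold change of -0.61 ± 0.16. For Rfc2 the counts were 47.1, 45.05 and 49.5 CPM in WT and 39.6, 32.98 and 22.9 CPM in KO, a log2 fold change of -0.57 ± 0.18. About 76.0% of the Rfc2 reads in WT and 76.1% in KO were assigned to transcripts annotated as retaining an intron. Rfc4, at -0.82 on the log2 scale, has exons that overlap Eif4a2 on the opposite strand, which had 32596 reads over all libraries against its own 1600. Exons of 14 of the 45 genes overlap a gene on the opposite strand. The kit kept the strand, but the strand setting of the quantification was not given in the sources used here. Adjusted p for the 5 genes ran from 0.205 for Rfc5 to 0.268 for Rfc2 in edgeR's quasi-likelihood test.

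Single-strand binding protein RPA coats the unwound DNA and is a trimer of unequal subunits, and its transcripts differed in how far they departed from WT. Rpa2, the middle subunit, had the smallest unadjusted p of the 45 genes. It measured 30.7, 29.9 and 28.8 CPM in WT 1 to 3 and 18.3, 17.8 and 13.4 CPM in KO 1 to 3, or 29.8 ± 0.971 against 16.5 ± 2.71 CPM (SD, n = 3), and its log2 fold change was -0.85 ± 0.14 (SE). Rpa1, the large DNA-binding subunit, read 59.5, 61.6 and 63.04 CPM in WT and 45.9, 39.7 and 35.1 CPM in KO, a log2 fold change of -0.61 ± 0.11. KO 3 was the lowest library for both, though it stood less far from KO 1 than for the MCM genes. Rpa3, the small subunit, measured 11.7, 9.70 and 9.16 CPM in WT and 9.94, 8.54 and 7.87 CPM in KO. Here KO 1 lay above WT 2 and WT 3, the groups overlapped, and the log2 fold change was -0.21 ± 0.16. In edgeR's quasi-likelihood test the adjusted p was 0.205 for Rpa2 and 0.633 for Rpa3.

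In every polymerase and primase gene of the list the KO libraries were under all WT libraries, an order that 10.3% of all tested genes had. Adjusted p for these genes ran from 0.205 for Prim2 to 0.296 for Prim1 in edgeR's quasi-likelihood test. Primase lays the RNA primer, polymerase alpha extends it, and polymerases delta and epsilon copy the lagging and leading strands. Prim2, the large primase subunit, was at 13.3, 14.6 and 14.9 CPM in WT and 10.03, 8.18 and 7.40 CPM in KO, with a log2 fold change of -0.74 ± 0.15. The other primase and polymerase genes were Prim1, Pola1, Pola2, Pold1, Pold2, Pole and Pole2, and their log2 fold changes ran from -1.11 for the catalytic subunit Pole to -0.53 for Pola2. The genes that finish the lagging strand were close to each other, at -0.92 for the flap nuclease Fen1 and -0.99 for the ligase Lig1. Lig1 had the tightest WT libraries of the list, 69.3, 69.5 and 70.1 CPM with a coefficient of variation of 0.558%, and 47.9, 33.9 and 23.1 CPM in KO. The median log2 fold change of the 13 genes of this role was -0.74.

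Nucleotide supply had the lowest median log2 fold change of the roles with 5 or more genes, -1.08. Rrm1 encodes the large, stable subunit of ribonucleotide reductase, which makes deoxynucleotides from ribonucleotides, and Rrm2 the small subunit that limits the enzyme in S phase. Rrm1 measured 88.5, 101 and 97.5 CPM in WT 1 to 3 and 67.1, 48.5 and 34.6 CPM in KO 1 to 3, with a log2 fold change of -0.93 ± 0.21 (SE). Rrm2 measured 51.8, 50.7 and 58.8 CPM in WT and 32.8, 27.1 and 9.49 CPM in KO, with a log2 fold change of -1.22 ± 0.37. As a ratio, KO 3 lay further below KO 2 for Rrm2 than for Rrm1. Tk1, the S-phase thymidine kinase of the salvage route, was at 33.5, 36.1 and 36.5 CPM in WT and 21.7, 12.9 and 10.9 CPM in KO, with a log2 fold change of -1.22 ± 0.23. Dut, which keeps uracil out of DNA by cleaving dUTP, was at 34.97, 39.3 and 41.2 CPM in WT and 26.3, 22.5 and 16.2 CPM in KO, a log2 fold change of -0.83 ± 0.17. Tyms, the thymidylate synthase, had a log2 fold change of -1.08 ± 0.29, with 40.9, 43.8 and 52.97 CPM in WT and 31.6, 21.1 and 12.4 CPM in KO. In all 5 genes each KO library was under each WT library, an order that 10.3% of all tested genes had. Adjusted p ran from 0.205 for Tk1 to 0.258 for Rrm2 in edgeR's quasi-likelihood test.

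For all 5 fork-protection and chromatin-assembly genes the KO libraries lay in the order KO 1, KO 2, KO 3, and none reached a WT library. Every KO library was below every WT library for 10.3% of all tested genes. Claspin, encoded by Clspn, carries the checkpoint signal from a stalled fork. Clspn measured 24.1, 23.8 and 26.3 CPM in WT and 14.3, 8.54 and 6.11 CPM in KO, a log2 fold change of -1.36 ± 0.27 (SE). Its partners Tipin and Timeless hold the helicase and polymerases together. Tipin was at 29.9, 27.9 and 26.8 CPM in WT and 20.8, 17.2 and 16.1 CPM in KO, with a log2 fold change of -0.65 ± 0.12. Timeless was at 39.3, 35.03 and 36.1 CPM in WT and 25.9, 23.8 and 16.9 CPM in KO, with a log2 fold change of -0.73 ± 0.16. The CAF-1 subunits set new histones behind the fork. Chaf1a had 40.3, 39.8 and 39.5 CPM in WT and 30.6, 23.1 and 17.96 CPM in KO, a log2 fold change of -0.74 ± 0.18. Chaf1b had 17.8, 22.2 and 24.2 CPM in WT and 14.9, 10.9 and 9.71 CPM in KO, a log2 fold change of -0.86 ± 0.19.

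For Timeless the difference was smaller once transcript length was taken into account. In TPM, a unit that divides reads by transcript length before scaling, Timeless stood at 31.8 ± 3.45 (SD, n = 3) in WT and 28.5 ± 1.03 in KO, and with transcript length as an offset its log2 fold change was -0.18 in place of -0.73. Its coding transcripts took 53.5 ± 2.81% of its reads in WT and 36.7 ± 6.97% in KO, and its retained-intron transcripts 15.7 ± 1.38% and 28.3 ± 3.27%. Of the 33 replication genes with at least 20 reads in every library and at least 1% of them on such transcripts, 8 had a higher retained-intron share in every KO library than in every WT library, against 12.1% of 6440 such genes. These were Cdt1, Chaf1a, Mcm2, Orc6, Pcna, Rpa1, Rrm1 and Timeless. The shares differed in size between them, from 1.46 ± 0.378% in WT and 3.01 ± 0.743% in KO for Mcm2 to 24.4 ± 1.22% and 32.2 ± 2.87% for Chaf1a. Rrm2 alone had a lower share in every KO library, against 3.12% of those genes.

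Per length, the level of the 45 genes spanned a wide range in WT. Pcna was highest at 118 ± 9.71 TPM (SD, n = 3), against 64.1 ± 20.4 TPM in KO, and Orc1 was lowest at 2.02 ± 0.359 TPM, with a median of 23.7 TPM over the 45 genes. Among the ring subunits the WT order was Mcm7 at 51.5 ± 5.22 TPM, Mcm6 at 49.1 ± 4.72, Mcm5 at 37.4 ± 2.20, Mcm3 at 32.2 ± 2.93, Mcm2 at 26.1 ± 2.15 and Mcm4 at 20.7 ± 1.87. Mcm7 and Mcm6 lay within their spread of each other, and the subunits below them were spaced more widely than their SDs.

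**Figure D3:**
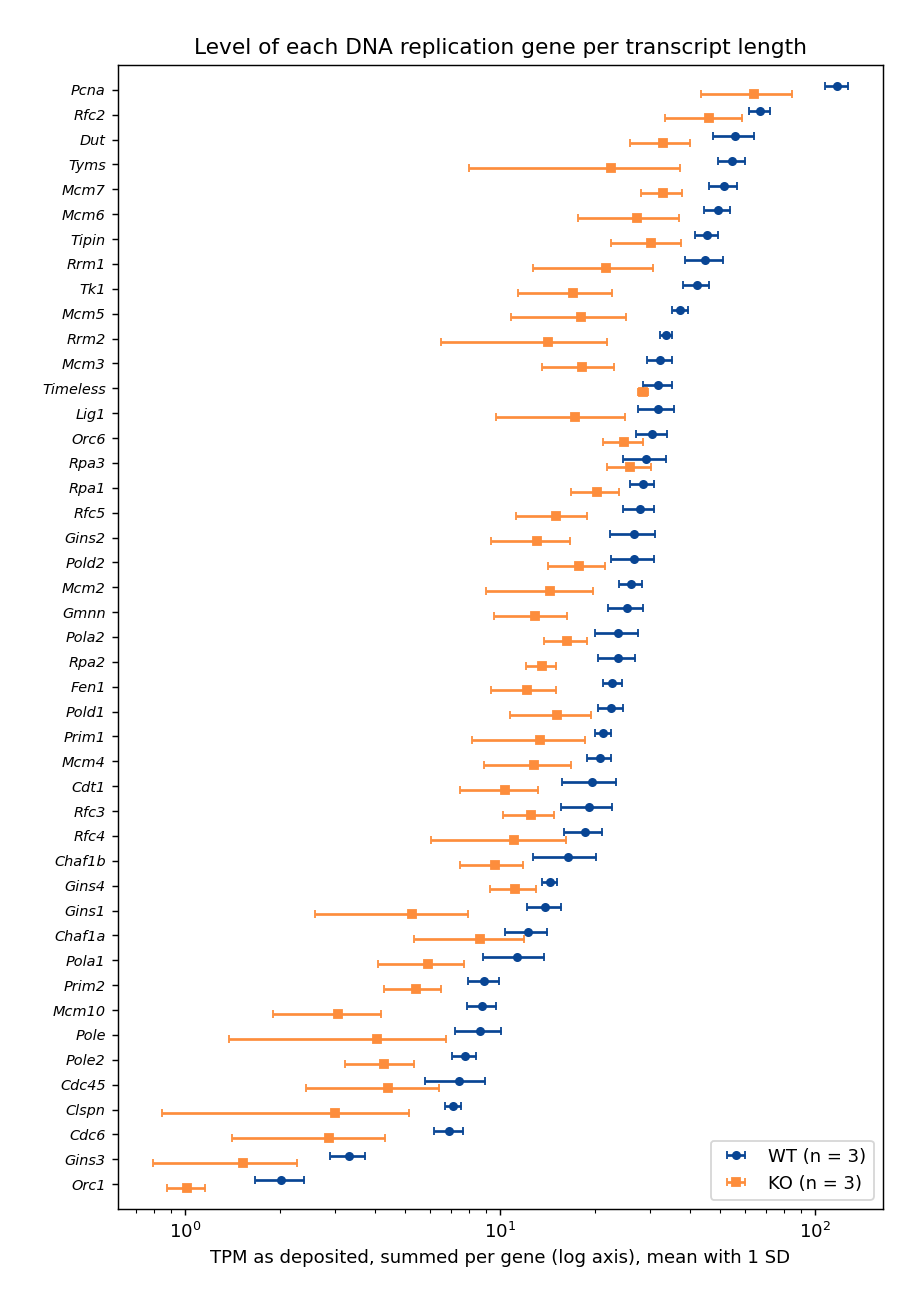
Mean TPM with SD of each replication gene in 3 WT and 3 KO libraries, on a log10 axis, in order of the WT level. Pcna stands highest at 118 TPM in WT and Orc1 lowest at 2.02 TPM.

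Perfect seed sites of the deleted microRNA were found in few of these genes. Its mature RNA from the 5′ arm is mmu-miR-216a-5p (chr11:28757018-28757039, plus strand, GRCm38.p6, RefSeq). It is shown with its seed, bases 2 to 8, in capitals, next to the 4 sites found in the longest annotated 3′ untranslated region of each replication gene, with the bases complementary to the seed in capitals and, for Clspn, also the A that lies opposite base 1.
mmu-miR-216a-5p: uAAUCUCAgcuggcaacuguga
Rpa1: cattgctgtcTGAGATTgacaaattgc
Chaf1a: ccagcactgcTGAGATTgaagccaagc
Rfc2: gcaggagagaTGAGATTgctcagcagt
Clspn: gttcgactgaTGAGATTAagatgtaggt
Sites were thus in 4 of the 45 genes (8.89%), against 18.1% of 15126 tested genes, whose 3′ untranslated regions were longer, with a median of 1371 against 526 bases. Rpa1, Chaf1a and Rfc2 hold a 7-base match, and Clspn the same match followed by an A, which makes 8 bases. All 4 were lower in KO, at -0.61, -0.74, -0.57 and -1.36 on the log2 scale.

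The rest of the replication pathway was taken from a list of 71 further genes, of which 70 passed the filter; Poln did not. Of these, 62 had a lower and 8 a higher mean in KO, 41 had every KO library below every WT library, against 10.3% of all tested genes, and 5 had every KO library above, against 9.07% of all tested genes. No gene was called by edgeR's quasi-likelihood test after adjustment. At an unadjusted p under 0.05 in that test, 41 were lower, against 7% of all tested genes, and 0 were higher. DESeq2 called 19 lower, against 1.85% of all tested genes. The median log2 fold change was -0.42. The smallest unadjusted p belonged to the histone chaperone Nasp, at 60.8, 72.3 and 72.5 CPM in WT and 47.9, 42.4 and 35.1 CPM in KO. Next came Topbp1, which helps to assemble the helicase, at 81.1, 80.9 and 81.5 CPM in WT and 62.7, 60.1 and 50.5 CPM in KO. Neither gene's groups overlapped. Dtl, which directs the destruction of CDT1, was at 31.9, 36.3 and 35.8 CPM in WT and 20.5, 16.4 and 9.62 CPM in KO, a log2 fold change of -1.16 ± 0.24. Ticrr, an initiation factor, was at 12.7, 14.9 and 14.2 CPM in WT and 8.43, 5.84 and 4.11 CPM in KO, a log2 fold change of -1.19 ± 0.25. Atad5, which unloads PCNA, was at 17.4, 22.3 and 22.9 CPM in WT and 14.2, 11.2 and 9.66 CPM in KO, a log2 fold change of -0.84 ± 0.18. The largest unadjusted p were those of Paics, an enzyme of purine synthesis, Top1, the topoisomerase that relieves twist, and Rnaseh1, which removes RNA from hybrids. Paics measured 101, 111 and 103 CPM in WT and 110, 98.2 and 105 CPM in KO. Top1 measured 105, 73.99 and 74.4 CPM in WT and 89.97, 79.1 and 79.5 CPM in KO. Rnaseh1 measured 9.002, 9.46 and 9.83 CPM in WT and 9.23, 9.86 and 9.66 CPM in KO. The KO and WT libraries overlapped in all 3 genes.

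Grouped by function after their values were seen, these genes gave the following medians, and differences between the groups were not tested. The 8 initiation genes Dbf4, Cdc7, Ticrr, Mtbp, Topbp1, Recql4, Donson and Wdhd1 had a median log2 fold change of -0.62. All were lower in mean, and 6 had every KO library below every WT library, against 10.3% of all tested genes. The further clamp loader genes Rfc1, Atad5, Chtf18, Dscc1 and Chtf8 had a median of -0.84. Rfc1, the large subunit of replication factor C, was at -0.27, and its KO and WT libraries overlapped. The origin recognition genes Orc2, Orc3, Orc4 and Orc5 had a median of -0.09, with Orc2 at -0.47, Orc3 at 0.17, Orc4 at -0.12 and Orc5 at -0.06, beside -1.16 for Orc1 and -0.31 for Orc6. The translesion polymerases Polh, Poli, Polk, Rev1 and Rev3l had a median of 0.08. Polk and Rev3l were higher in every KO library than in every WT library, an order that 9.07% of all tested genes had.

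Markers of mitosis were lower in mean too, with another spacing of the KO libraries. The markers were Mki67, Top2a, Cdk1, Ccnb1, Ccnb2, Plk1, Aurkb, Bub1, Birc5 and Cdc20. Top2a was also on the list of other replication genes. All 10 had each KO library under each WT library, against 10.3% of all tested genes. Their median log2 fold change was -1.28, and the library medians against the WT mean were -0.53, -1.71 and -2.06 in KO 1 to 3. For the 45 replication genes the same medians were -0.54, -0.70 and -1.37. In these medians KO 2 stood near KO 1 for the 45 genes together and near KO 3 for the mitosis markers. The roles were not alike in this. Nucleotide supply had medians of -0.55, -0.99 and -1.70, and chromatin assembly had -0.45, -0.88 and -1.15. The 8 regulators of the passage from G1 to S had a median of -1.29, and their library medians were -0.74, -1.25 and -1.87. E2f2, a regulator also high in erythroid precursors, was the exception among them: KO 2 stood at 32.7 CPM, above all WT libraries (18.1 to 23.5 CPM), and KO 1 and KO 3 at 9.19 and 5.73 CPM. KO 2 was the KO library with the highest erythroid share, and the part of that share in the E2f2 level was not tested.

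**Figure D4:**
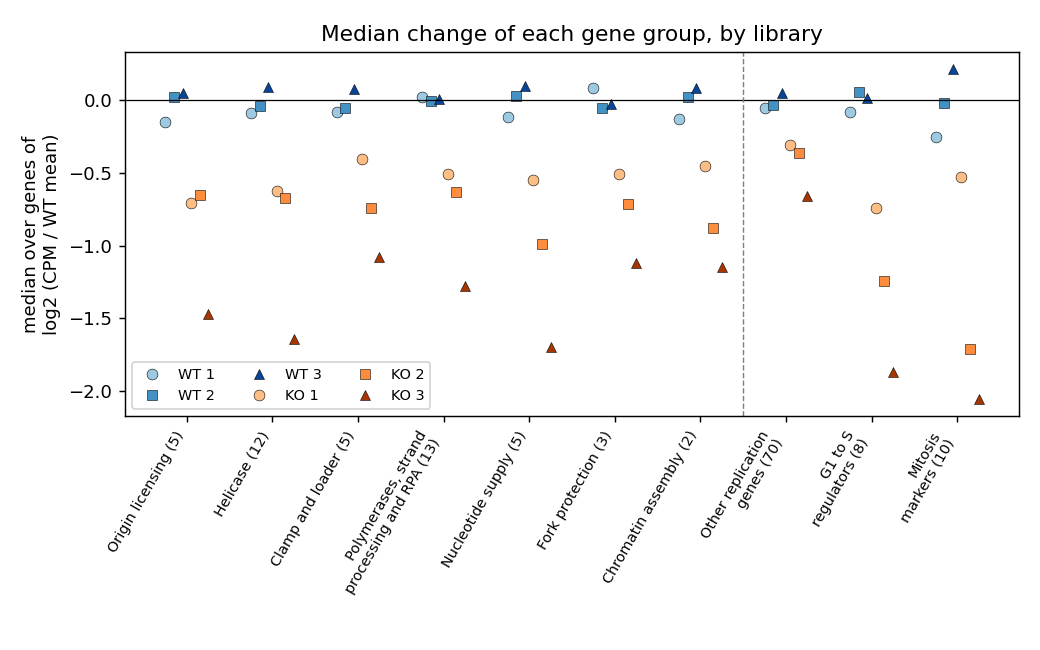
Median log2 level against the WT mean in each of the 6 libraries for each role of the replication genes, the other replication genes, the G1 to S regulators and the mitosis markers. Top2a is in both the other replication genes and the mitosis markers. KO 3 is lowest in every group, and KO 2 lies near KO 1 for licensing and helicase but near KO 3 for the mitosis markers.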

How the data were processed

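Whole-pancreas RNA from 3 WT and 3 KO mice aged 1 day was sequenced, 1 library per mouse. The authors deposited Salmon transcript tables (Salmon 0.13.1, mm10, per the submitters' processing notes) with expected counts and TPM per transcript from a transcript set not given in the sources used here. They also deposited a gene table of scaled signal values that are not whole counts, used only as an alternative. The submitters' processing notes also name bcl2fastq and DESeq2 1.24.0.

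Expected counts were summed per gene through GENCODE M21, which matched 115995 of 116248 transcripts, rounded, filtered with filterByExpr and tested with edgeR 4.0.16 (quasi-likelihood, TMM factors, Benjamini-Hochberg adjustment over 15805 genes) in R 4.3.3. The standard error is the size of the log2 fold change divided by the square root of F. DESeq2 1.42.0, limma 3.58.1, other scalings and filters, a length offset, an erythroid covariate and left-out libraries were alternatives. Groups came from the genotype label, and replicate numbers only name libraries. TPM values were summed per gene. The fit was tested on simulated data. Depth was 20565387 to 23028718 reads. Retained-intron shares used the GENCODE transcript types. Promoter and microRNA sequences came from RefSeq (GRCm38.p6) and 3′ untranslated regions from GENCODE. The promoter table held no entry for Tipin, Prim2, Rfc2, Pole, Gmnn, Gins4, Gins1, Mcm4 and Gins2.

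In each role the 3 genes with the smallest and the 1 with the largest unadjusted p, plus Pcna, Gmnn, Rrm1, Rrm2 and Mcm2 to Mcm7, are given library by library, with 5 and 3 such genes from the list of other replication genes; further genes were named after their values were seen. The members and lists were chosen with earlier results of these data known.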

Additional observations from a re-analysis of the deposited data

How the results depend on the processing

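Under 17 alternatives, none of the 765 fold changes of the 45 genes changed sign, 55 passed the adjusted threshold where they had not, and 710 kept their side of it. The count called lower, 0 in edgeR's quasi-likelihood test, was 32 with DESeq2 and ranged from 0 to 23 when 1 library was left out, with 23 without KO 1. For the other replication genes it was 19 with DESeq2, against 1.85% of all genes called. It ranged from 0 to 13 when 1 library was left out, with 13 without KO 1, against 1.71% of all genes. Both counts were 0 under the other scalings and filters, limma-voom, the length offset, the authors' scaled table and the erythroid covariate. The cause of these differences was not tested. The median log2 fold change, -0.84, was -0.64 without KO 3 and -0.99 without KO 1. All KO libraries were under all WT libraries for 42 genes with the length offset and 43 in the authors' table, against 44 in the main fit. The share of all tested genes with that order, 10.3%, was taken in the main fit only. No paired analysis was possible because the labels give no replicate numbers shared between the genotypes. Depth limits Orc1 most, with 25 reads in its lowest library.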

Other observations

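By median, a group of 12 further genes of nucleotide metabolism stood closer to WT than the replication genes did. The 12 genes Nme1, Shmt1, Shmt2, Mthfd2, Cad, Ctps, Umps, Impdh2, Gmps, Paics, Gart and Atic, grouped after their values were seen, were all lower in mean in KO, with a median log2 fold change of -0.26 and a range from -0.52 to -0.0049. All KO libraries were below all WT libraries for 3 of the 12 (10.3% of all tested genes had that order). Their library medians against the WT mean were -0.32, -0.08 and -0.38 in KO 1 to 3, so KO 2 was the nearest to WT. Whether they differ from the 45 replication genes was not tested.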
